A study of Sus scrofa with 8 samples.

Results

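The 41 genes described here encode proteins of the large subunit of the cytosolic ribosome (60S). They were chosen by name from the platform annotation: every gene whose single symbol starts with RPL and a digit, or is RPLP0, RPLP1 or RPLP2, without pseudogene symbols and without the mitochondrial MRPL genes. Of the 2922 genes with a single symbol on the array, 41 met this rule, with 120 of the 9984 spots. RPLP1 was the only member among RPLP0, RPLP1 and RPLP2. A further 2 spots annotated to both RPL13A and ANKRD52 were left out.

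Skeletal muscle RNA of pigs (Sus scrofa) on a high energy diet was hybridised against that of pigs on a low energy diet, with 1 sample of each diet on every array. Of the 8 arrays, 4 carried the high energy sample in dye 5 and 4 carried it in dye 3 (Cy5 and Cy3). They formed 4 couples of samples, each hybridised in both dye orientations: couple 1 set sample 49 (low energy) against 40 (high energy), couple 2 set 61 against 41, couple 3 set 142 against 40 again, and couple 4 set be against ae, letters the labels do not expand. Both groups are described by diet alone; the composition of the diets, the breed, age and sex of the animals, the muscle sampled, and whether a sample is 1 animal or a pool are not stated in the labels. A dye swap repeats the same pair of RNAs, so its arrays were averaged and n is 4 couples unless another number is given. The p-values measure no spread other than that among couples, which limma draws towards a value common to all features tested. Part of the spread among couples may be technical.

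Ribosomes build every protein of the muscle fibre, and their proteins are made in near-equal amounts to be assembled with ribosomal RNA in the nucleolus. The large subunit joins amino acids at its catalytic centre, passes the growing chain through an exit tunnel, and recruits translation factors through flexible stalks. In many cells the messenger RNAs of ribosomal proteins start with a tract of pyrimidines and are translated together under the control of nutrient signals through mTOR, a control that acts on translation and is not read by an array of transcript ratios.

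Each value is a log2 ratio of the channels of an array. The files do not state its direction. It was read as high over low energy, which is likely because the design text names the low energy samples as the reference. The turned value, given beside it, is the mean with the opposite sign on the 4 dye 3 arrays, and under the likely reading it is the part that follows the dyes. Values were present for 77.6% to 94.4% of spots per array, and 40 of the 41 members were measured on all 8 arrays. RPL35A lacked 1 array and entered the fit with 3 couples. In bulk muscle, fewer cells of a type and less RNA per cell cannot be told apart. Of 12 markers of the muscle fibre 11 were on the array and measured; ratios give no level, so the labelled tissue was checked only to that extent.

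No large subunit gene passed the test for a difference between the diets. In limma, 0 of 41 members had an adjusted p under 0.05, as did 0% of the 5025 features tested (smallest adjusted p = 0.996). At an unadjusted p under 0.05 there was 1 member (2.44%), against 3.78% of all features; that member lay above 0, as did 1.37% of all features by the same rule. The ratios of the members were small and mostly on one side: 32 of 41 (78.0%) lay above 0, against 46.4% of all features. Their median log2 ratio was 0.044, or 1.03-fold, against a median of -0.012 over all features. The turned values went the other way, with 14 of 41 above 0 (34.1%; 47.4% of all features) and a median of -0.023.

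The median of the members was above 0 in each couple, at 0.039, 0.044, 0.028 and 0.065 in couples 1 to 4. The number of members above 0 was 26 of 41, 26 of 41, 25 of 40 and 31 of 41. The median over all features lay between -0.026 and -0.00033 in the same couples. By array, the median of the members was above 0 on 7 of 8 arrays. The exception was couple 2 with high energy in dye 5, at -0.017. The counts and medians differed between the dye orientations. With high energy in dye 5 alone 21 of 41 members lay above 0 (background 47.2%) and their median was 0.012. In dye 3 alone 33 of 41 did (background 50.3%) and the median was 0.069. No test of this difference over the whole list was made.

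Of the 40 members measured in all 4 couples, 10 (25.0%) were above 0 in each, against 7.47% of all features so measured, and 0 were below 0 in each, against 9.12%. These were RPL27A, RPL13, RPL19, RPL37A, RPL41, RPL26, RPL10A, RPL34, RPL30 and RPLP1. With the values turned, 4 of 40 members (10%) were above 0 in all 4 couples, RPL8, RPL17, RPL30 and RPL41, against 6.65% of all features. Turned and below 0 in all 4 couples were 7 (17.5%; 8.08% of all features): RPL37, RPL18, RPL27A, RPL34, RPL38, RPL11 and RPL36A. The direction in which more members kept 1 sign thus depended on the reading of the ratio. On all 8 arrays 2 of 40 (5.00%) were above 0, RPL30 and RPL37A, against 0.797% of all features, and 0 were below 0 on all 8, against 1.46%. A further 6 were above 0 on 7 arrays: RPL13, RPL19, RPL41, RPL35, RPL10A and RPL34.

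**Figure D1:**
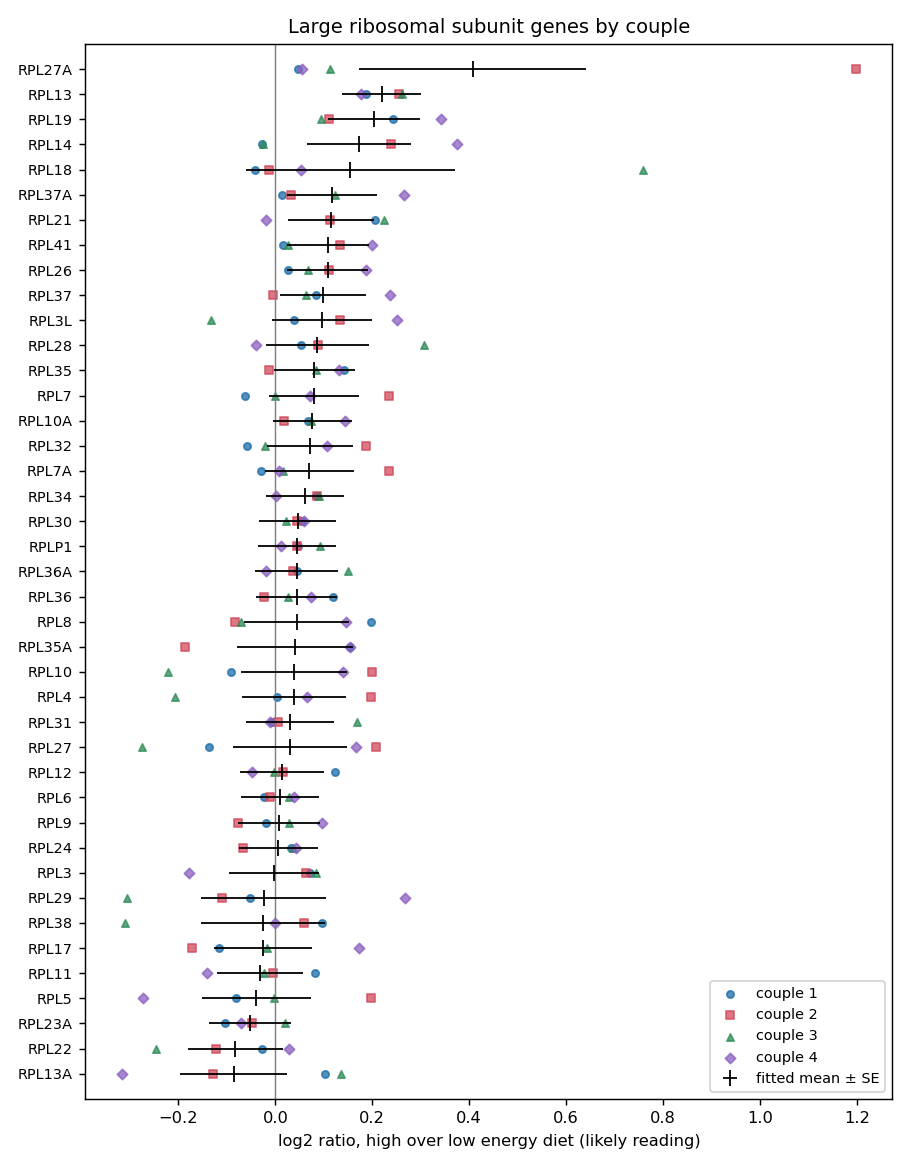
Log2 ratio of high over low energy muscle (x axis, likely reading) for each of the 41 large subunit genes (y axis, ordered by fitted mean). Coloured points are the 4 couples, each the mean of its swapped arrays, and black bars are limma's fitted mean ± SE. RPL27A in couple 2 and RPL18 in couple 3 lie far to the right of their other couples, and 32 of 41 means lie above 0.

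The precision of single genes bounds what could be seen. Limma's SE ran from 0.079 to 0.23 with a median of 0.092, and the 95% interval of 39 members lay wholly within 0.5 of 0 on the log2 scale, or 1.41-fold in either direction. The exceptions were RPL27A and RPL18. These errors are moderated by limma: RPL30 had the smallest, 0.079, though the SD of its couples was 0.017. The median size of the members' ratios, 0.052, was below the smallest of these errors, so a difference of that size was not detectable in a single gene by this test.

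The proteins of the stalks had ratios close to 0. RPLP1 encodes an acidic protein that recruits elongation factors to the ribosome. It had 0.091, -0.0067, 0.076 and -0.14 in couples 1 to 4 with high energy in dye 5, and 0.0018, 0.096, 0.11 and 0.17 with the dyes swapped. Its arrays lay on both sides of 0, with 6 of 8 above it and a mean log2 ratio of 0.045 ± 0.080 (SE; turned -0.056). RPL12, at the base of the same stalk, had 0.014 ± 0.086 (turned -0.023), and RPL10A, which forms the stalk on the other side where spent transfer RNA leaves, had 0.076 ± 0.082 (turned -0.0021). All 3 fitted means were above 0, and none was larger than its error.

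RPL5 and RPL11, which carry the 5S ribosomal RNA into the subunit and, when unassembled, bind the p53 regulator MDM2, formed the one group of the 5 with every mean below 0. RPL5 had 0.12, 0.28, 0.20 and -0.57 with high energy in dye 5 and -0.29, 0.11, -0.20 and 0.023 with the dyes swapped, a mean of -0.040 ± 0.11 (turned 0.018). RPL11 had 0.048, -0.19, -0.085 and -0.21 in dye 5 and 0.12, 0.18, 0.037 and -0.073 in dye 3, a mean of -0.032 ± 0.088 (turned -0.095). Both genes held values on either side of 0 in each orientation. Without couple 4 both means were above 0, at 0.061 for RPL5 and 0.015 for RPL11. The -0.57 of RPL5 in that couple came from 1 spot at -1.06, whose duplicate had -0.079.

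The proteins around the catalytic centre gave 4 of 5 means above 0. RPL3, the widely made form of a core protein of this centre, had 0.12, 0.11, 0.34 and -0.33 with high energy in dye 5 and 0.026, 0.011, -0.17 and -0.030 in dye 3. Its mean was -0.0035 ± 0.093 (turned 0.031), and 0.071 without couple 4. RPL3L, the form that replaces RPL3 in striated muscle, had 0.13, -0.022, -0.32 and 0.33 in dye 5 and -0.047, 0.29, 0.052 and 0.17 in dye 3, a mean of 0.097 ± 0.10 (turned -0.044; 0.031 without couple 4). The difference of RPL3L over RPL3 was -0.032, 0.071, -0.22 and 0.43 in couples 1 to 4, above 0 in 2 of them. The plain mean of this difference, with equal weight for each couple, was 0.063 ± 0.27 (SD), whereas limma's means weight couples 1 and 3 less. No exact test over 4 couples can give a two-sided p below 0.125, and this difference was smaller than the spread between couples. RPL8 had 0.044 ± 0.11 (turned 0.16), but -0.0028 without couple 1 and -0.00014 without couple 4, and RPL4, which also lines the exit tunnel, 0.038 ± 0.11 (turned -0.060).

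RPL10, which joins the subunit late in its assembly, had 8 spots in 4 neighbouring pairs and a mean of 0.039 ± 0.11 (turned -0.027). Its pairs differed on single arrays. In couple 3 with high energy in dye 5, the spots of the first pair had -1.31 and -1.95, so both duplicates were low, while the second pair had -0.14 and 0.23 on the same array. With the dyes swapped, the first pair had 0.23 and 0.13. In couple 2 with high energy in dye 5, a spot of the third pair and one of the fourth had 1.11 and 1.10. In couple 3 with high energy in dye 5, the fourth pair had 0.10 and -0.74, so 1 of its spots was low too. The third pair had 0.036 and 0.023 on that array. These 3 of the 8 spots of the gene were low in 1 dye orientation of couple 3. With the dyes swapped, the low spot of the fourth pair had 0.23, but its duplicate had -0.63.

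The proteins around the exit of the tunnel, where chaperones and targeting factors meet the new chain, had 4 of 6 means above 0 and a median of 0.056 (turned 0.0023). RPL19 had 0.35, 0.060, -0.056 and 0.41 with high energy in dye 5 and 0.13, 0.16, 0.25 and 0.27 in dye 3. It was above 0 on 7 of 8 arrays and in all 4 couples, with a mean of 0.20 ± 0.095 (turned -0.0028; adjusted p = 0.996 in limma), and both of its spot pairs had means above 0, at 0.16 and 0.23. RPL26, which also binds the p53 messenger, had -0.00083, 0.14, -0.014 and 0.42 in dye 5 and 0.052, 0.087, 0.15 and -0.050 in dye 3, a mean of 0.11 ± 0.083 (turned 0.057). Its value of 0.42 averaged spots at -0.12 and 0.97. RPL35 had 0.081 ± 0.084 (turned -0.016) and RPL31 0.031 ± 0.090 (turned -0.0051). RPL23A, a docking site of the signal recognition particle, had 0.027, -0.047, -0.23 and 0.031 in dye 5 and -0.23, -0.049, 0.27 and -0.17 in dye 3, a mean of -0.052 ± 0.084 (turned 0.0074), and RPL17 had -0.026 ± 0.10 (turned 0.068).

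Among the remaining 25 members, most of them proteins found in eukaryotes and not in bacteria, 21 had means above 0, with a median of 0.061 (turned -0.033). RPL13 was the member with an unadjusted p under 0.05. It had 0.14, 0.30, 0.62 and 0.17 with high energy in dye 5 and 0.24, 0.21, -0.095 and 0.18 in dye 3, so that only 1 of 8 arrays was below 0. Its couples lay close together, at 0.19, 0.26, 0.26 and 0.18, and its mean was 0.22 ± 0.082 (turned 0.073), or 1.16-fold, with an adjusted p of 0.996 in limma. Leaving out any 1 couple kept the ratio between 0.20 and 0.24 and took the unadjusted p above 0.05, as did taking the median of spots or 1 dye orientation with all 4 couples. Its spots were less even than its couples: on the array of couple 1 in dye 3 the duplicates of the first pair had 1.26 and -0.16, and on that of couple 2 in dye 5 the second pair had 0.10 and -0.85.

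RPL13A, which despite its name is not a close relative of RPL13 and can leave the ribosome to silence inflammatory messengers, had the lowest mean of the members. It had 0.0082, -0.058, 0.42 and -0.075 in dye 5 and 0.20, -0.20, -0.15 and -0.56 in dye 3, a mean of -0.086 ± 0.11 (turned 0.13). A single spot of 6 had -3.97 on the array of couple 4 in dye 3, where its duplicate had 0.30, and another had 2.67 on that of couple 3 in dye 5, where its duplicate had 0.20. Without spot values beyond 2 log2 the mean was -0.029, and without couple 4 it was 0.013. RPL22, whose protein also binds viral and cellular RNA outside the ribosome, had -0.038, -0.068, -0.13 and -0.058 in dye 5 and -0.017, -0.18, -0.36 and 0.12 in dye 3. It was below 0 on 7 of 8 arrays, the most of any member, with a mean of -0.082 ± 0.099 (turned 0.011), which was -0.040 without couple 3 and -0.13 without couple 4.

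**Figure D2:**
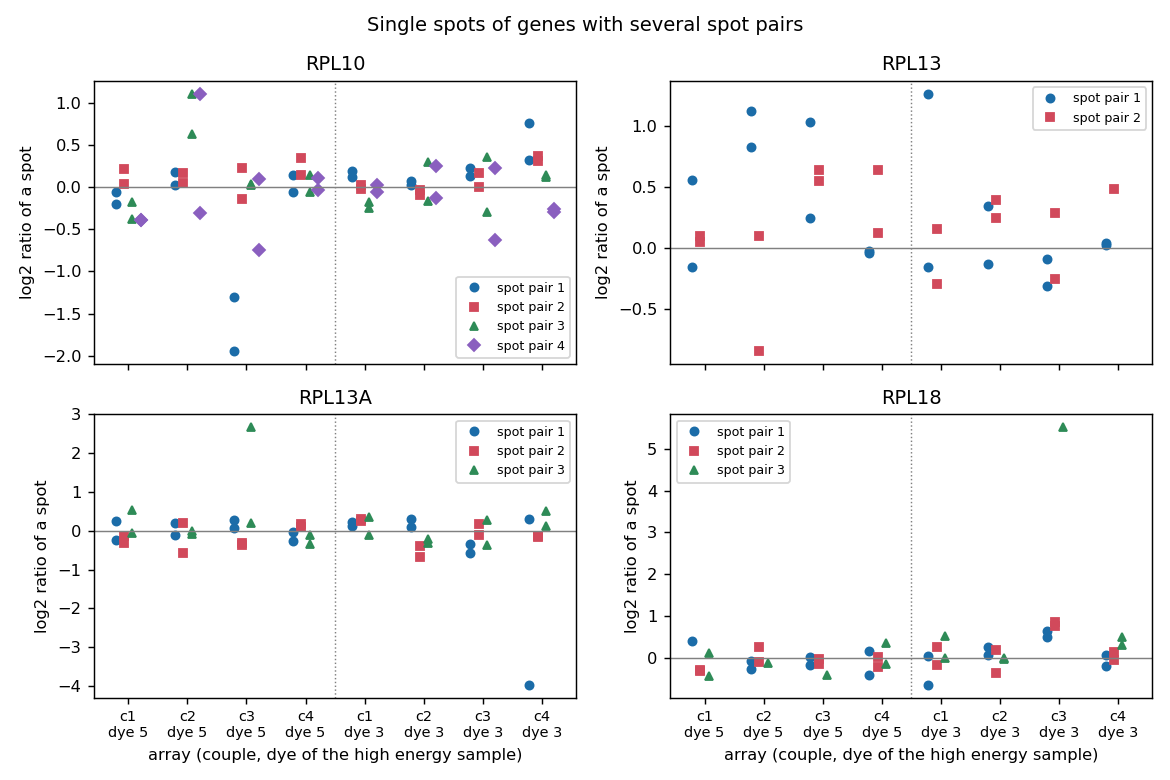
Log2 ratio of every single spot (y axis) on each of the 8 arrays (x axis: couple 1 to 4, c1 to c4, with the dye of the high energy sample) for 4 genes with several spot pairs; the y axes differ between panels, and colours mark the neighbouring pairs. Single spots reach 5.51 in RPL18 and -3.97 in RPL13A, while in RPL10 both spots of the first pair are low on 1 array.

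The largest mean, that of RPL27A, rested on 1 spot. This gene had -0.017, -0.052, 0.033 and -0.080 in dye 5 and 0.11, 2.45, 0.19 and 0.19 in dye 3, a mean of 0.41 ± 0.23 (turned -0.44). The value of 2.45 came from 1 spot whose duplicate had no value on that array, and the swapped array of the couple had -0.052. Without couple 2 the mean was 0.068. RPL18 had -0.092, -0.054, -0.14 and -0.032 in dye 5 and 0.0061, 0.025, 1.66 and 0.14 in dye 3, a mean of 0.15 ± 0.22 (turned -0.23; -0.0014 without couple 3). On that array of couple 3, 1 spot had 5.51 and the 4 spots of the other pairs had 0.65, 0.50, 0.77 and 0.85, so all 5 measured spots were high there. None of its spots was high in the swapped array, where the gene had -0.14.

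RPL37, a small zinc-binding protein, followed the dyes on all 8 arrays as the mean of its 2 spots. It had -0.026, -0.14, -0.31 and -0.067 in dye 5, all below 0, and 0.19, 0.13, 0.44 and 0.54 in dye 3, all above 0, without overlap. On some of these arrays the 2 spots differed in sign. In dye 5 they had -0.87 and 0.24 in couple 3, and 0.14 and -0.19 in couple 1. In dye 3 they had -0.041 and 0.29 in couple 2. The mean of RPL37 was 0.098 ± 0.089 (0.040 without couple 4) and its turned value -0.23, for which limma's adjusted p was 0.998. RPL18 split in the same way, though 2 of its dye 3 values were 0.0061 and 0.025. Its turned value came mostly from couple 3, at -0.90, against -0.049, -0.039 and -0.085 in couples 1, 2 and 4. RPL37 and RPL18 were 2 of 40 members, against 0.44% of all features measured on 8 arrays, with 0 members in the opposite sense, against 0.247%. In limma's fit of the turned values 0 of 41 members passed, also at an unadjusted p under 0.05, against 2.65% of all features by that unadjusted rule.

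RPL30 and RPL37A stayed above 0 on every array. RPL30, a small protein that controls the splicing of its own transcript in yeast, had 0.10, 0.077, 0.026 and 0.10 in dye 5 and 0.011, 0.011, 0.016 and 0.017 in dye 3, a mean of 0.046 ± 0.079 (turned 0.033). The highest of its array values was 0.10. Its 2 spots each had arrays below 0, and a single spot reached 0.29. RPL37A, another zinc-binding protein, had 0.019, 0.00068, 0.063 and 0.15 in dye 5 and 0.0074, 0.063, 0.18 and 0.38 in dye 3, a mean of 0.12 ± 0.093 (turned -0.056; 0.053 without couple 4). Several of these values are so near 0 that a shift of an array's centre would turn them. RPL14 had -0.00091, 0.37, 0.29 and 0.22 in dye 5 and -0.056, 0.11, -0.34 and 0.53 in dye 3, a mean of 0.17 ± 0.11 (turned 0.061; 0.087 without couple 4). RPL29, a heparin-binding protein, had -0.23, -0.097, -0.45 and 0.35 in dye 5 and 0.12, -0.12, -0.17 and 0.18 in dye 3, a mean of -0.024 ± 0.13 (turned -0.033).

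**Figure D3:**
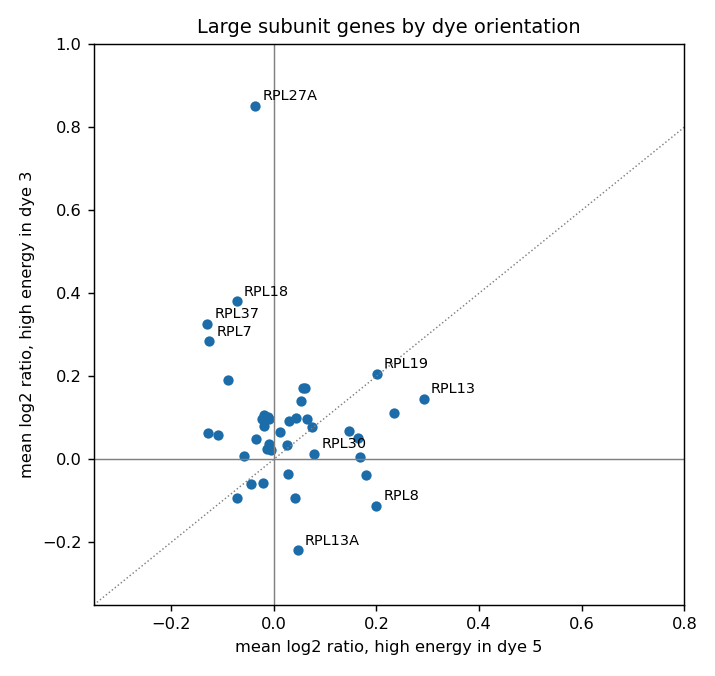
Fitted mean log2 ratio of each of the 41 large subunit genes over the 4 arrays with high energy in dye 3 (y axis) against that over the 4 arrays with high energy in dye 5 (x axis); the dotted line marks equal values. RPL27A, RPL18, RPL37 and RPL7 lie high in dye 3 and below 0 in dye 5, while RPL13 and RPL19 lie above 0 in both.

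The other members had fitted means from -0.025 to 0.11. RPL21 had 0.11 ± 0.089 (turned -0.057), RPL41, the shortest protein of the ribosome, 0.11 ± 0.085 (turned 0.039) and RPL28, a protein that bacteria lack, 0.087 ± 0.11 (turned 0.081). RPL7 had 0.079 ± 0.093 (turned -0.20), with 0.79 on the array of couple 2 in dye 3 against -0.32 with the dyes swapped. RPL32, RPL7A, RPL34, RPL36A and RPL36 had means between 0.044 and 0.072. RPL35A had 0.041 ± 0.12 in 3 couples (turned -0.15); its gene is, with RPL5 and RPL11, among those mutated in the inherited anaemia of Diamond and Blackfan. RPL27 had 0.030 ± 0.12 (turned -0.049) and RPL38, needed for the translation of some homeobox messengers, -0.025 ± 0.13 (turned -0.084). RPL6, RPL9 and RPL24, the last of which forms a bridge to the small subunit, had 0.0091, 0.0071 and 0.0064. By descent, 20 of 23 proteins of families confined to eukaryotes and archaea and 11 of 17 of the families shared with bacteria had means above 0, with medians of 0.061 and 0.038 (turned -0.029 and -0.016). The difference of these groups was not tested.

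The spread of a gene over arrays went with the brightness of its spots. Most deposited values match the log2 of a ratio of 2 whole numbers within 6e-10, and the larger of these in lowest terms, called the recovered signal, was taken as a lower bound on brightness. The lesser number was under 5000 for 85.9% to 97.1% of values per array. Read as natural logs, 1.57% to 3.16% of the same values matched so, and as log10, 4.83% to 11.0%. For values with no such match the signal may be arbitrary and counts as bright. Across the 41 members the recovered signal and the SD over arrays had a Spearman's rho of -0.57, a description over genes that share the same arrays. The 17 members with a recovered signal of at least 2000 had a median SD over arrays of 0.11, the 13 from 529 to 1826 one of 0.18, and the 11 at 439 or less one of 0.25. RPL6 was the steadiest, between -0.055 and 0.049 on the 8 arrays. RPL37 had an SD of 0.29 at a recovered signal of 12532, so a high recovered signal did not always go with a small spread. On the array of couple 3 in dye 5 its spots had -0.87 and 0.24.

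**Figure D4:**
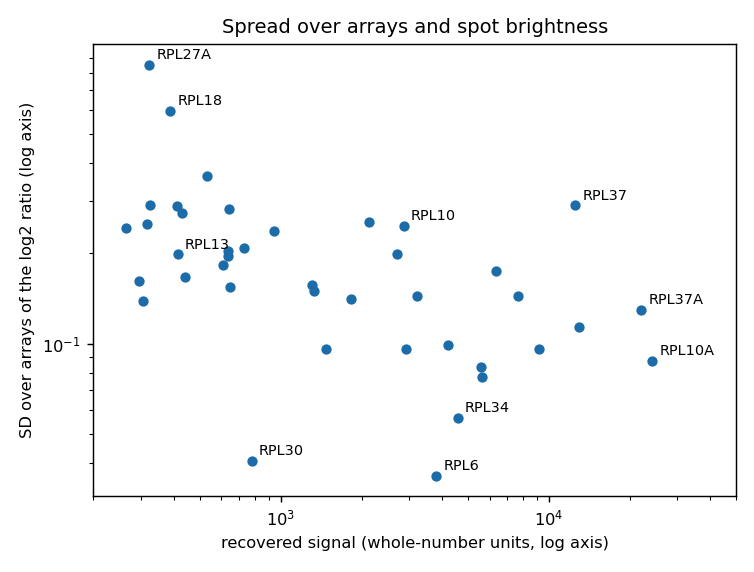
SD of the log2 ratio over arrays (y axis, log scale) against the recovered signal (x axis, log scale) for the 41 large subunit genes, 1 point a gene. The spread is lower in genes with a higher recovered signal (Spearman's rho -0.57), with RPL37 above and RPL30 below the others of like signal.

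The share above 0 was larger among bright members. It was 15 of 17 at a recovered signal of at least 2000, where 43.0% of all features lay above 0, and 11 of 13 in the middle range, where 50.4% did. In the dimmest range it was 6 of 11, where 46.3% of all features did. Of the 30 members in the brighter ranges, 8 were above 0 in all 4 couples, against 8.99% of all features of such signal. Turned, 3 were above 0 in all 4 couples (6.31% of all features of such signal) and 5 were below (9.61%). The median of the members was 0.045, 0.044 and 0.041 from the brightest to the dimmest of these ranges (turned -0.029, -0.044 and 0.018).

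The levels of the measurement differed in their spread. Neighbouring duplicate spots of a member on 1 array differed by a median of 0.19 log2, and spot pairs of the same gene by 0.21. The swapped arrays of a couple differed by 0.15 and the couples by 0.11, after averaging over spots and then over arrays. Of the 14 members with several spot pairs, 8 had the same sign in all pairs; RPL10, RPL13A, RPL23A, RPL36A, RPL38 and RPL4 did not. Over the 41 members, the arrays of a couple had a Spearman's rho of 0.035, 0.13, -0.24 and 0.019 in couples 1 to 4. Arrays of different couples had a mean rho of 0.098 with the same dyes (12 pairs, -0.18 to 0.51) and -0.030 with the dyes swapped (12 pairs, -0.43 to 0.20). The highest of these, 0.51, was between couples 1 and 3 with high energy in dye 5, which share sample 40 in the same dye. The other pair of arrays that shares it in the same dye, couples 1 and 3 with high energy in dye 3, had 0.14. The order of the members among themselves thus scarcely recurred between the arrays of a couple.

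The small subunit and the mitochondrial ribosome serve for comparison. Of 25 small subunit genes 15 had means above 0, with a median of 0.011 (turned -0.033), and couple medians of 0.075, 0.054, -0.013 and 0.020. RPS27L, a relative of RPS27 induced by p53, had -0.46 ± 0.13 in 3 couples (turned 0.36), RPS29 0.19 ± 0.095 (turned -0.090) and RPS15 -0.16 ± 0.10 (turned 0.0042), the last below 0 on all 8 arrays. Of 22 tested genes of the mitochondrial large subunit 8 had means above 0, with a median of -0.044 (turned -0.0063), and couple medians of 0.020, 0.031, -0.072 and -0.070. MRPL23 had -0.39 ± 0.12 and MRPL20 0.30 ± 0.10, each in 3 couples (turned -0.11 and 0.29). No gene of either list passed the test over all features, and the difference between the lists and the large subunit was not tested.

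**Figure D5:**
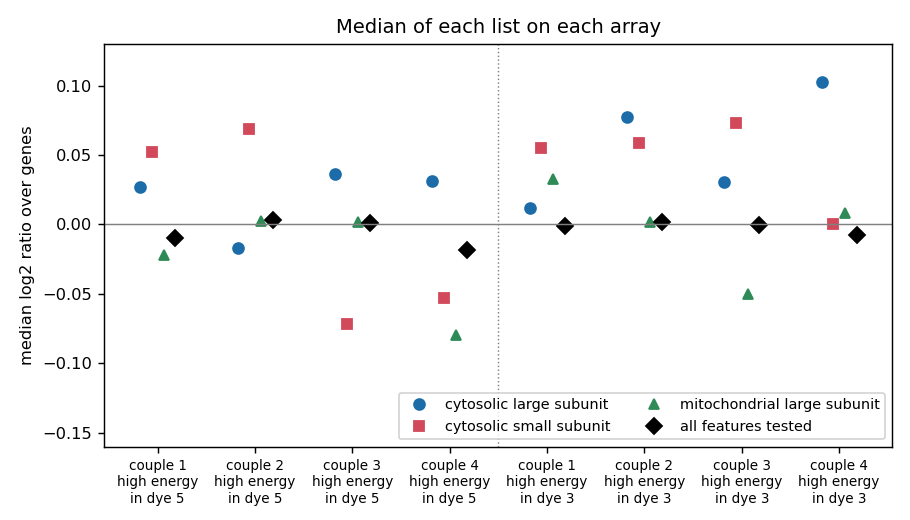
Median log2 ratio over the genes of each list (y axis) on each of the 8 arrays (x axis, couple and dye of the high energy sample), for the cytosolic large subunit, the cytosolic small subunit, the mitochondrial large subunit and all features tested. The large subunit median is above 0 on 7 of 8 arrays, between -0.017 and 0.10, while the small subunit median is below 0 in couples 3 and 4 with high energy in dye 5.

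Genes that act on the same process showed small ratios as well. Of 40 translation factors 25 had means above 0, with a median of 0.042 (turned -0.0059), among them EEF1A1, which brings transfer RNA to the ribosome, at 0.25 ± 0.091 (turned -0.018) and above 0 on all 8 arrays. EIF6, which keeps a new large subunit from joining the small one too early, had 0.26 ± 0.096 in 3 couples (turned -0.20). It was above 0 on 3 of 6 arrays. Of 8 tested factors of ribosome assembly 3 had means above 0 (median -0.037, turned -0.045), with NHP2 at 0.10 ± 0.11 (turned 0.066) and NPM1, a nucleolar chaperone, at -0.093 ± 0.099 (turned -0.067). Of 10 genes that control the synthesis of ribosomal proteins 6 did (median 0.032, turned -0.019). LARP1, which binds the pyrimidine tract of these messengers, had 0.26 ± 0.20 (turned 0.26) but was above 0 on only 3 of 8 arrays. MLST8, a partner of mTOR, had -0.098 ± 0.090 (turned -0.034) and was above 0 on 1 of 8. None of these genes passed in limma.

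Markers of the muscle fibre had mixed signs. Of 11 measured, 4 had means above 0, with a median of -0.087 (turned 0.016) and couple medians of -0.12, -0.045, -0.077 and -0.10; MB had -0.32 ± 0.10 (turned 0.22) and TNNT1 -0.21 ± 0.080 (turned -0.047). With high energy in dye 5 alone 6 of 11 lay above 0, with a median of 0.0085, and in dye 3 alone 4 of 11 did, with a median of -0.14. Their difference from the ribosomal genes was not tested. Few markers of other cell types were measured: 2 of 6 for fat cells, 4 of 6 for blood, 3 of 8 for vessels, 3 of 6 for fibroblasts, 2 of 7 for immune cells and 1 of 4 for nerve. Of these, 1, 2, 3, 2, 0 and 1 had means above 0. The part of cell composition in the ratios of the ribosomal genes was not tested.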

How the data were processed

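The deposited values are log2 ratios per spot on 8 arrays; per the series' design text, Cy3 and Cy5 were the dyes and a ScanArray LITE the scanner. How background was corrected, spots filtered and values normalized, and in which direction, no label or header used here says. The unit was read from the values, many of which are log2 of ratios of whole numbers. Deposited array medians were between -0.0071 and 0.011. Arrays were centred on their medians, spots with the same symbol averaged, and unnamed spots kept singly, which gave 6296 features. The platform annotation gives 1 symbol for 6610 spots, several for 106 and none for 3268; its probes carry human accessions, and 40 of the 41 symbols occur in the pig tables. Ribosomal protein genes have many processed copies, so a spot may read more than 1 transcript. Features measured in both orientations in at least 3 couples (5025) were tested with limma 3.58.1 (R 4.3.3; lmFit, eBayes, two-sided), blocked by high energy sample (40 serves couples 1 and 3) with an assumed correlation of 0.5, so means weight couples 1 and 3 less, and Benjamini-Hochberg adjustment over all features at 0.05. The script was tested on simulated data. No sequence is printed. The members and lists were chosen with earlier results of these data known. Array values are given for RPLP1, RPL3, RPL3L, the 5 members of smallest p on each side of 0, the 3 of largest SE, the 3 of largest turned value and those of 1 sign on all arrays; from each other list up to 3 genes of smallest p. Alternatives covered dyes, centring, scaling, filters, spots, block and couples left out.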

Additional observations from a re-analysis of the deposited data

Results flagged for a closer look

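In 40 members the couple farthest from the others was compared with the range of the 4, by Dixon's ratio at its 95% critical value, which chance exceeds in about 1 of 20 independent groups; 6 members (15.0%) exceeded it, as did 7.39% of the 3640 features measured in all 4 couples. Couples 1 and 3 share a sample, so the couples are not independent. RPL27A had 1.20 in couple 2 against 0.046 to 0.11 in the other couples, from 1 spot on 1 array. RPL18 had 0.76 in couple 3 against -0.043 to 0.053. RPL31 had 0.17 in couple 3 against -0.011 to 0.0049, and RPL3 had -0.18 in couple 4 against 0.063 to 0.084. In RPL34 couple 4 stood apart at 0.0017 against 0.084 to 0.091, and in RPL24 couple 2 at -0.068 against 0.032 to 0.043, both small on the log2 scale.

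RPL37 and RPL18 were below 0 on all 4 arrays with high energy in dye 5 and above 0 on all 4 with high energy in dye 3, with turned values of -0.23 and -0.23. The 2 spots of RPL37 differed in sign on some of these arrays. The turned value of RPL18 was -0.90 in couple 3 and -0.049, -0.039 and -0.085 in couples 1, 2 and 4. Limma's test of the turned values did not pass for either gene (adjusted p = 0.998).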

How the results depend on the processing

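Of all features and of the members, 0 passed the threshold in every alternative run, in the turned fits too; features at an unadjusted p under 0.05 numbered 108 to 353, against 190. With independent couples 310 did and with the replicate block (all 8 arrays, the couple as a random block, correlation -0.0362) 353; each gave 2 members, RPL13 and RPL19, against 1. The count was 0 with every spot, the median of spots, either dye orientation alone, turned values, or any couple left out. The median of the members was 0.069 with high energy in dye 3 only, 0.012 in dye 5 only and -0.023 turned, and the share above 0 was 51.2% in dye 5 only and 34.1% turned. Without 1 couple the median ran from 0.045 to 0.056 and the share from 70.7% to 75.6%. Of all 41 members, 17 changed sign in dye 5 only, 5 in dye 3 only, 30 turned, 3 with the median of spots, and 3, 6, 5 and 11 without couples 1 to 4; none was called. Among the 18 members with array values these were as follows. In dye 5 only: RPL27A -0.036, RPL18 -0.072, RPL37 -0.13, RPLP1 -0.012, RPL3 0.027 and RPL13A 0.047. In dye 3 only: RPL29 0.0088 and RPL11 0.063. RPL3 had 0.0057 with scaled arrays, 0.00028 uncentred and 0.010 with independent couples or the replicate block. Turned: RPL27A -0.44, RPL19 -0.0028, RPL18 -0.23, RPL37A -0.056, RPL37 -0.23, RPL3L -0.044, RPLP1 -0.056, RPL3 0.031, RPL5 0.018, RPL23A 0.0074, RPL22 0.011 and RPL13A 0.13. Without 1 couple, RPL18 ran from -0.0014 to 0.27, RPL3 from -0.032 to 0.071, RPL29 from -0.15 to 0.035, RPL11 from -0.057 to 0.015, RPL5 from -0.14 to 0.061 and RPL13A from -0.11 to 0.013. Leaving out spot values beyond 2 log2 was chosen after seeing the data. The causes were not tested. Dim spots and 4 couples limit the precision.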
